A study of Mus musculus with 20 samples.

Results

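The NKX2-1 binding sites of the embryonic mouse basal ganglia are described here from the peak list deposited for 1 chromatin immunoprecipitation sequencing (ChIP-seq) sample. The list holds 5683 peaks on chromosomes 1 to 19 and X, and the 61 peaks that overlap a region in all 9 other lists of the series were left out, which leaves 5622 peaks of the 471733 regions in all 10 lists. NKX2-1 and LHX6 were each precipitated with a polyclonal antibody from basal ganglia of wild-type CD-1 embryos at embryonic day 13.5. The 4 histone marks H3K27ac, H3K4me1, H3K4me3 and H3K27me3 came from medial ganglionic eminence (MGE) of C57BL/6 embryos of the same age, either wild type or Nkx2-1cKO, a conditional Nkx2-1 null whose Cre driver the labels do not name. The series has 1 sample for each factor and for each mark in each genotype, and how many libraries were merged into a sample is not given in the sources used here. No value below therefore has a replicate error, and the factors and the marks differ in strain and in the tissue dissected.

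NKX2-1 is a homeodomain transcription factor of the NK2 class. It marks the progenitors of the MGE, the ventral telencephalic domain that gives rise to many cortical and striatal interneurons and to cholinergic and pallidal neurons, and it acts upstream of the LIM homeodomain factor LHX6 in interneuron specification. The same factor is needed in lung and thyroid, where it binds the promoters of surfactant and thyroid hormone synthesis genes.

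The windows printed first are those of the strongest peaks and of peaks in or beside developmental genes, because they show what lies under a summit, the base of highest coverage in a peak. Each runs from 60 bases before to 60 bases after the summit on the + strand of mouse NCBIM37 (mm9), is lower case, and has capitals for the NK2 cores CACTTGA and CACTCAA and their reverse complements TCAAGTG and TTGAGTG, the letters of the classical NK2-class binding site. No window holds an annotated exon. Where the gene name stands alone, it is the protein-coding gene with the nearest transcription start site (TSS), which is not shown to be a target.
Phactr1, chr13:42752181-42752301: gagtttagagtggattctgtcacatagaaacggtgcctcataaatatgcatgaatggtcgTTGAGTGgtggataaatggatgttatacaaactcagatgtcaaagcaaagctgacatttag
Epha4, chr1:77528917-77529037: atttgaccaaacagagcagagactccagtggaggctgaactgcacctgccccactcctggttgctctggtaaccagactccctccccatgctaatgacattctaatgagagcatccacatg
Slc4a3, chr1:76487969-76488089: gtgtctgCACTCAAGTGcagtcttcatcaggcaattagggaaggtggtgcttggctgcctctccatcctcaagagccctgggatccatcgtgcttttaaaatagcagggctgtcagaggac
Tle1 intron, chr4:71843436-71843556: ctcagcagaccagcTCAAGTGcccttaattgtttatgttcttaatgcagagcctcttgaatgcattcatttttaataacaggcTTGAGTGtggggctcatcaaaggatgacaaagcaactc
Tle3 intron, chr9:61228975-61229095: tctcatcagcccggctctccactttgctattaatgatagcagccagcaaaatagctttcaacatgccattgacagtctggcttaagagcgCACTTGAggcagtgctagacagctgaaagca
Auts2, chr5:132854990-132855110: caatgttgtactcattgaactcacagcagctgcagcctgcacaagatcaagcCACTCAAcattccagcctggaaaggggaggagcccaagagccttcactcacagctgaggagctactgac
Nkx2-1 intron, chr12:57636144-57636264: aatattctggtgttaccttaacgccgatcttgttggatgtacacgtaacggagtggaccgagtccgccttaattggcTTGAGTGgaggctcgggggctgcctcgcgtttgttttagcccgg
Sox2, chr3:34545266-34545386: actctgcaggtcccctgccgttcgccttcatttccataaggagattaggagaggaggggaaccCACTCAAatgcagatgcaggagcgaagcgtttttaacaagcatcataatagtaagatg
Ptch1 intron, chr13:63655998-63656118: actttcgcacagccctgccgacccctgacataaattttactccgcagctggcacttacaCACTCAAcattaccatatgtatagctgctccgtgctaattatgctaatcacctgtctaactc
Xab2 promoter, chr8:3621351-3621471: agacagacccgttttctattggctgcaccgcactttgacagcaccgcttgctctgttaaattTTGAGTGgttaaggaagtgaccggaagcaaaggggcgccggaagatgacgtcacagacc
The windows differ in what they hold. The Phactr1, Tle3, Auts2, Nkx2-1, Sox2, Ptch1 and Xab2 windows have 1 core each. The Tle1 window has 2 separate cores. The Slc4a3 window has 2 that overlap, read on opposite strands. The Epha4 window, under the peak next in fold enrichment to that of Phactr1, has no core.

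Fold enrichment, the pileup of extended tags at the summit over the caller's background, ran from 2.60 to 21.5 with a median of 4.34. The authors' −log10 p of the same peaks ran from 5.35 to 212, and their lengths from 250 to 8653 bases with a median of 340.0. The peak of highest fold, 21.5, lay 23.8 kb upstream of the nearest Phactr1 TSS, a gene for an actin-binding phosphatase regulator, and overlapped an LHX6 peak. The next, at 20.5, lay 17.3 kb upstream of Epha4, an Eph receptor of axon guidance. Peaks near Cobl, an actin nucleator (17.4, 137 kb away), and Cdc42ep4, a CDC42 effector (17.1), followed together with those near 2310044G17Rik (18.1) and Fubp3 (17.1). The Gm10742 (16.7) and Ccl1 (15.3) peaks, also among the 15 with the highest −log10 p, had H3K4me1 and no wild-type H3K27ac. At the other end, the peaks just inside the authors' threshold, near Zfp286 and Gm17404, had a fold of 2.60 and a −log10 p of 5.35.

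The tissue label of the wild-type histone mark samples was checked at TSSs, mainly in the H3K27ac list. The check covers MGE of C57BL/6 embryos and not the CD-1 basal ganglia of the NKX2-1 sample. H3K27ac covered a TSS of 11 of 11 MGE and ventral telencephalic markers (among them Nkx2-1, Lhx6, Lhx8 and Dlx1), and of 0 of 6 pallial, 0 of 6 endothelial and blood, 0 of 3 microglial and 0 of 6 lung and thyroid markers. H3K4me3 was less selective, at 11 of the 11 MGE and 5 of the 6 pallial markers. H3K27me3 was also present at 7 of the 11 and 5 of the 6. The NKX2-1 library held 89.1 M tags after removal of duplicates, the most of the 10 ChIP libraries (26.8 to 89.1 M), and its input 68.9 M. The ratio of pileup to fold was constant over the NKX2-1 list to within 0.0290% of its median, so each fold is relative to 1 genome-wide level and not to the local input. A group of peaks stood apart from the rest: 389 peaks lay in 26 clusters of 6 or more, 84.6% of them overlapped an LHX6 peak and 5.91% had wild-type H3K27ac, against 10.6% and 74.7% of the 4269 peaks with no neighbour within 0.0125 Mb, the linking distance used for clusters. Where computed, results that rest on them are given with and without them. Others are given among the 4528 peaks (80.5%) that overlap wild-type H3K27ac or H3K4me1, called marked below. Both sets were formed after the data were seen.

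NKX2-1 peaks fell into a promoter group and a larger distal group. The summit lay within 1 kb of a protein-coding TSS for 1299 peaks, 23.1% (95% interval 22.0 to 24.2; intervals of shares are exact Clopper-Pearson and cover counting error only). The share was 27.7% among marked peaks. It was 2.83% for the 1589 LHX6 peaks left by the same exclusion and 25.2% for the 62591 wild-type H3K27ac regions. A further 802 peaks (14.3%) lay 1 to 10 kb away, 2234 (39.7%) lay 10 to 100 kb away, and 1287 (22.9%) lay beyond 100 kb, 143 of them over 500 kb from any protein-coding TSS. The median distance was 25.1 kb, with quartiles at 1.6 and 89.7 kb; LHX6 peaks had a median of 56.1 kb and H3K27ac regions one of 20.8 kb. Away from promoters, 1789 peaks (31.8%) lay in introns and 2398 (42.7%) between genes, and 48 peaks (0.854%) lay in coding exons.

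**Figure D1:**
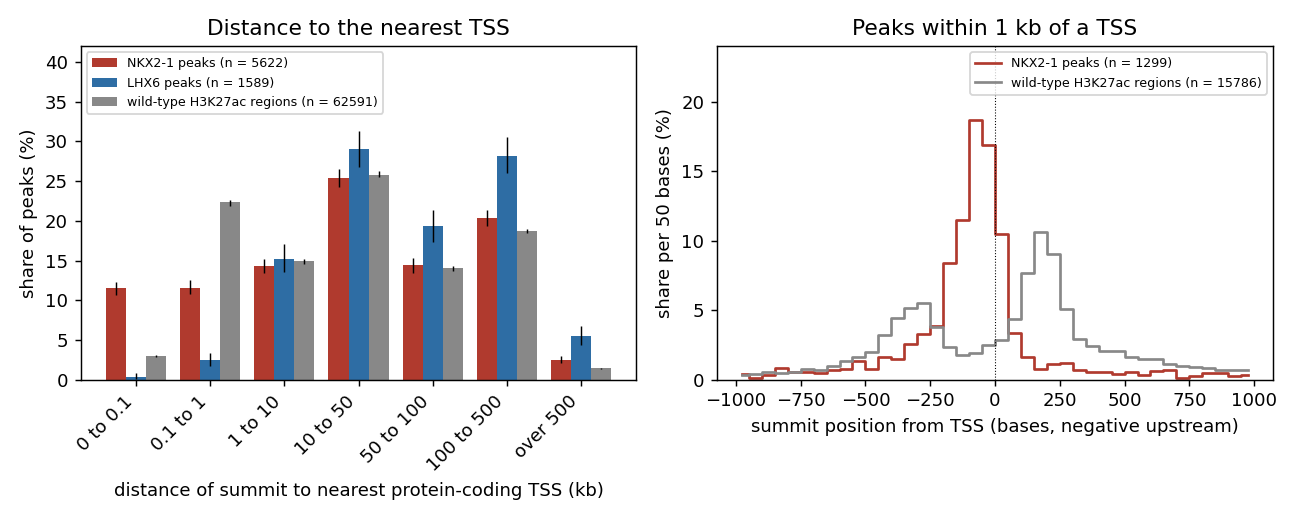
Left, share of NKX2-1 peaks, LHX6 peaks and wild-type H3K27ac regions by the distance of the summit from the nearest protein-coding TSS in kb, with exact 95% intervals for counting error; right, summit positions within 1 kb of a TSS in 50-base bins, in bases with negative values upstream. NKX2-1 has 11.5% of its peaks within 0.1 kb, LHX6 0.378%, and the NKX2-1 promoter summits pile up just upstream of the TSS where the H3K27ac summits have a dip.

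Promoter summits lay close to the TSS and mostly before it. Of the 1299 promoter peaks, 976 (75.1%, 72.7 to 77.5) had the summit upstream, with a median position of −72.0 bases, and 18.7% of them fell in the 50 bases centred at −75. H3K27ac summits within 1 kb were upstream in 40.3%, with a median position of 118 bases downstream. The strongest promoter peak had a fold of 16.7 and lay 2 bases past a TSS of Zfp142, a zinc finger gene. Xab2, a splicing and transcription-coupled repair factor (fold 14.3), BC052040 (14), Abcf1, a translation initiation factor of the ABC family (13.8), and Rps6kb2, an S6 kinase (13.7), came next. All 5 kept H3K27ac in the mutant and none overlapped an LHX6 peak. A peak within 1 kb was the nearest for 1259 genes, of which 1222 had a single one. TSSs on both strands lay within 1 kb of 15.6% of the promoter summits (203). The value was 8.90% for promoter H3K27ac summits without an NKX2-1 peak and 16.4% for TSSs with H3K4me3 and no NKX2-1 peak.

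Histone marks at the peaks differed between promoter and distal sites. Wild-type H3K27ac, a mark of active promoters and enhancers, overlapped 3938 peaks (70.0%). H3K4me1, which marks enhancers, overlapped 3829 (68.1%), H3K4me3, typical of promoters, 3415 (60.7%), and H3K27me3, the Polycomb mark, 419 (7.45%). H3K27ac was present at 95.2% of promoter peaks and at 60.3%, 63.8% and 61.5% of peaks 1 to 10 kb, 10 to 100 kb and over 100 kb away. H3K4me3 was not confined to promoter peaks: it was at 96.6% of them and at 55.9%, 50.1% and 46.0% in the same distal classes. Of the promoter peaks, 51.1% had H3K27ac with H3K4me1 and 44.1% had H3K27ac without it. Over all peaks, 57.6% had both, 10.5% had H3K4me1 without H3K27ac, and 807 peaks (14.4%) had none of the 4 marks. Bdnf, a neurotrophin gene, had a strong peak without H3K27ac, 2.90 kb from a TSS with a fold of 14.1, where H3K4me1 and H3K27me3 were present.

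In the conditional mutant, 421 of the 3938 peaks with wild-type H3K27ac (10.7%, 9.74 to 11.7) overlapped no H3K27ac region. Over all wild-type H3K27ac regions, 19.8% had no mutant H3K27ac in a window of about the median NKX2-1 peak length at the summit (12420 of 62591). The share lost fell with the strength of the region, so the 2 shares cannot be set against each other without it. The loss was 0.808% at promoter peaks (10 of 1237), 10.3% at 1 to 10 kb, 15.8% at 10 to 100 kb and 17.2% beyond 100 kb. In the same classes of all wild-type H3K27ac regions, by the summit window, it was 2.69%, 22.4%, 26.1% and 27.1%. Peaks that lost H3K27ac had a median −log10 p of 13.7 in the wild-type H3K27ac list and a median region length of 539 bases, against 47.0 and 1577 bases for peaks that kept it. Of the 15 peaks with the highest NKX2-1 −log10 p, the one near Cobl and the one near Vmn1r238 lost it. Those that lost it held an NK2 core in 25.9%, against 18% of those that kept it, with promoter peaks (12.7% of the 1227 kept) among the latter. At 10 to 100 kb the core shares were 26.7% and 21.1%, and beyond 100 kb 21.3% and 20%. Of the 516 peaks with H3K27me3 in the mutant, 153 (29.7%) had none in wild type. Of the 419 with it in wild type, 56 (13.4%) had none in the mutant. The mutant H3K27me3 list was the larger, with 28077 regions on chromosomes 1 to 19 and X against 21252 in wild type. The same shares over all H3K27me3 regions were not computed. With 1 sample of each genotype, these values describe the samples and hold no test of the genotype.

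Read at equal strength of the wild-type mark, the share of distal H3K27ac regions missing from the mutant list was higher with an NKX2-1 peak than without one at a −log10 p of 5 to 40, with counting intervals that did not overlap. Over 1 kb from a TSS and with a −log10 p of 10 to 20, 249 of 624 regions with a peak (39.9%, 36.0 to 43.9) had no mutant H3K27ac, against 22.8% (22.2 to 23.4) of regions without. Between 20 and 40 the shares were 14.3% (11.9 to 16.9; 117 of 820) and 5.36% (4.84 to 5.92). Between 5 and 10 they were 52.6% (45.3 to 59.8) and 44.1% (43.4 to 44.9), and between 40 and 80 they were 1.62% (0.891 to 2.71) and 0.597% (0.348 to 0.954), where the intervals overlap. At 80 or more, 0 of 409 regions with a peak and 0 of 504 without one were lost. Without regard to strength the order is the other way, 11.2% of all regions with a peak (492 of 4405) and 20.5% of those without. Regions with a peak were stronger, with a median −log10 p of 41.0 against 13.7. The intervals cover counting error only, and how far 2 H3K27ac samples of 1 genotype would differ was not tested.

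**Figure D2:**
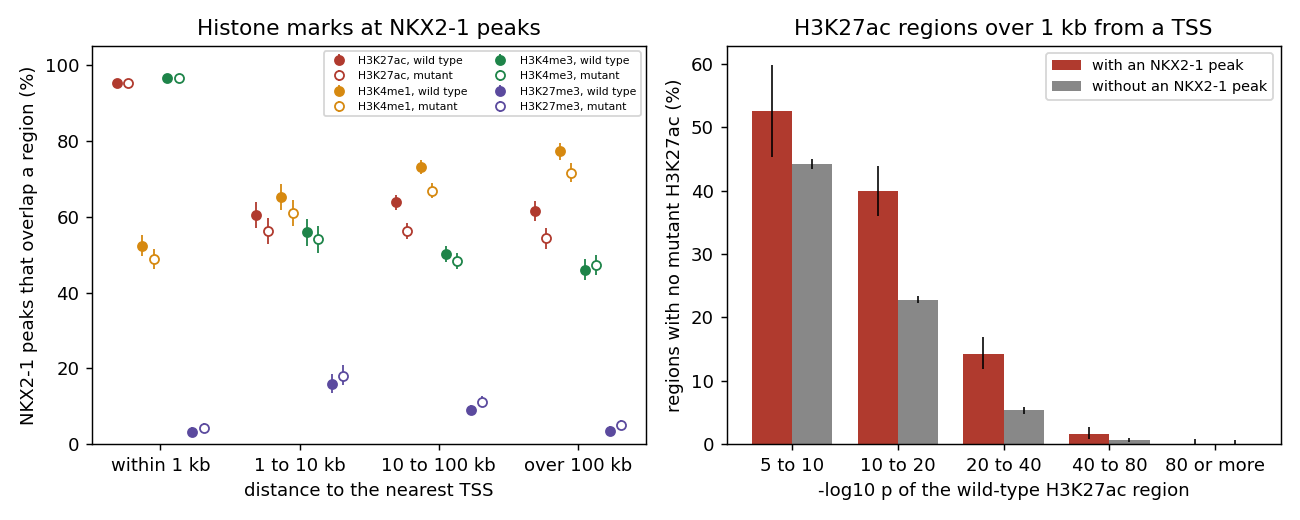
Left, share of NKX2-1 peaks (%) that overlap each mark in wild type (filled) and mutant (open) by distance from the nearest TSS; right, share of wild-type H3K27ac regions over 1 kb from a TSS (%) with no mutant H3K27ac, by the −log10 p of the region, with and without an NKX2-1 peak. Lines are exact 95% intervals for counting error. H3K27ac covers 95.2% of promoter peaks, and the loss falls from 52.6% to 0 with rising strength of the mark.

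Some peaks lay in clusters, and most of the largest clusters lacked marks of active chromatin. The share with a neighbour that random placement would give was not computed. At a linking distance of 0.0125 Mb between peaks, 1353 peaks (24.1%) had another NKX2-1 peak beside them, against 33.2% of the same number of the strongest wild-type H3K27ac regions. Of the strongest 1589 NKX2-1 peaks 13.8% had one, against 37.8% of the 1589 LHX6 peaks. Of those LHX6 peaks, 418 lay in LHX6 clusters of 6 or more, and the shares of LHX6 peaks given here were not computed without them. There were 4269 single NKX2-1 peaks, 341 pairs and 110 clusters of 3 or more peaks (671 peaks). Among marked peaks alone, 17.2% had a neighbour and 56 clusters of 3 or more remained (190 peaks), of which 2 had 6 or more.

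The largest cluster held 64 peaks over 157 kb at chr2:77707778-77865178, nearest to Cwc22, a spliceosome gene. All 64 overlapped LHX6 peaks, 1 had wild-type H3K27ac, 10 had an NK2 core, and the median fold was 5.97. The second, at chr1:90108626-90189002 beside Heatr7b1 and Hjurp, held 56 peaks, 11 of them marked and 34 with LHX6. The next, at chr1:173444962-173511893 beside Cd244 and Itln1, held 36, of which 1 was marked, 30 overlapped LHX6 and 0 had an NK2 core. Clusters with the nearest TSS that of Prl2c2 (20 peaks), Olfr161 (19), Mrgpra3 (18), Speer4e (17), Gm13212 (14) and 1600014C10Rik (11) followed, with 0, 0, 0, 1, 2 and 2 marked peaks. The Gm17379 and Mid1 cluster on chromosome X had 9 of its 12 peaks marked, and 11 overlapped LHX6. A 32-base word taken at the summit was found once in the reference for 61 of the 64 Cwc22 peaks and for 5 of the 17 Speer4e peaks; over all peaks it was found once for 5415 (96.3%). Copy number in the embryos' genomes and local input coverage were not tested.

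**Figure D3:**
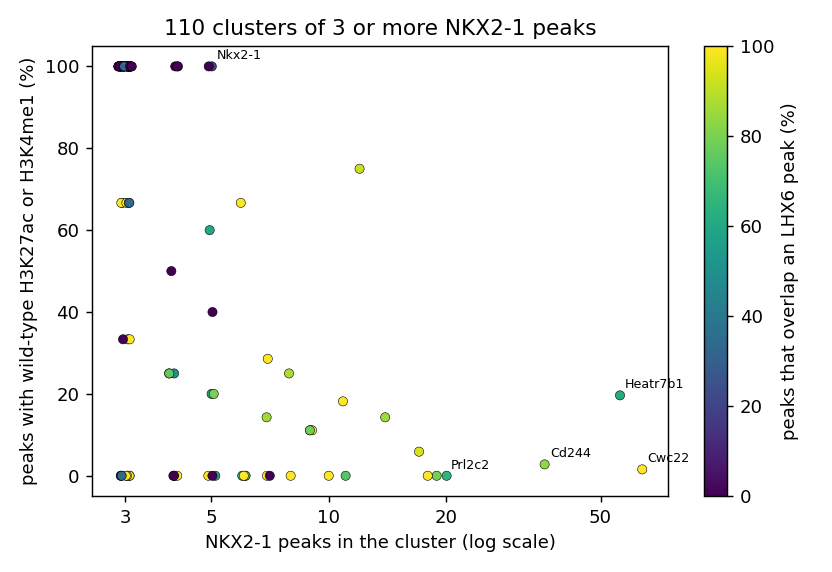
Each point is 1 of the 110 clusters of 3 or more NKX2-1 peaks linked across gaps of up to 0.0125 Mb; the x axis is its number of peaks (log scale), the y axis the share with wild-type H3K27ac or H3K4me1 (%), and the colour the share that overlap an LHX6 peak (%). The Cwc22, Heatr7b1, Cd244 and Prl2c2 clusters lie at the lower right, and the Nkx2-1 cluster of 5 peaks at the top left with 0 LHX6 overlaps.

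Counted on marked peaks alone, the largest clusters were those at Hjurp (11 peaks) and Gm17379 (9), followed by clusters of 5 at Gse1 and at the Nkx2-1 gene itself. The Nkx2-1 peaks spanned 12.1 kb at chr12:57626609-57638698, and all 5 had both wild-type H3K27ac and H3K27me3. Their summits lay 11.2, 7.30, 1.69 and 0.0900 kb downstream and 0.662 kb upstream of a TSS, with folds of 5.10, 3.43, 5.17, 5.63 and 4.19. The 3 nearest the TSS each had an NK2 core and none overlapped LHX6. The peak at 7.30 kb lost H3K27ac in the mutant. Gse1, a gene for a coiled-coil protein of a corepressor complex, had clusters of 5 and 4 marked peaks, the larger at chr8:122928699-122949962. Tmem161b and Rhbg had 4 each, and Tle3, Slc4a3, Cdk5r1, Ola1 and Chd2 had 3 each.

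By nearest TSS, 3645 genes had at least 1 peak, 940 had 2 or more, 386 had 3 or more and 99 had 5 or more. The ranking by all peaks was led by genes whose nearest peaks are mostly unmarked: Cwc22 (57 peaks), Heatr7b1 (35), Gm15319 (27), Olfr161 (20), Cd244 (18), Mrgpra3 (18), Hjurp (16), Itln1 (15) and Prl2c2 (14). Zfp608, a zinc finger gene, had 15 and all 15 were marked. Counted on marked peaks alone, 57 genes had 5 or more. Zfp608 was first, with folds from 3.51 to 6.01. Gse1 followed with 12 and Nrxn3, a presynaptic adhesion gene, with 11. Gatsl2, Auts2, a neurodevelopmental chromatin regulator, and Cryba4 had 10 each. Gm9866 and C130026L21Rik had 9 each. Tle3, a Groucho corepressor, Plxna2, a semaphorin receptor, Grik3, a kainate receptor, Myt1l, a neuronal zinc finger factor, and Nkx2-1 had 8 each. Sox2, a progenitor factor, had 7, as did Slc4a3, Dscaml1, Gm17379 and Cps1 among others. Of the Sox2 peaks 4 had an NK2 core. LHX6 overlapped 6 of the 12 Auts2 peaks, whose folds ran from 3.96 to 12.7.

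Genes with many peaks sat in long stretches of sequence. The stretch in which a gene's TSSs are the nearest had a median of 46.5 kb over all 22320 genes that have one, 113 kb over genes with 1 or more marked peaks and 533 kb over those with 5 or more. Per 100 kb of that stretch, Nkx2-1 had 5.98 marked peaks over 134 kb, Gse1 5.21, Tle3 2.93, Zfp608 1.24 over 1209 kb and Plxna2 1.02. Hjurp (22.3), Heatr7b1 (11.3), Arl4d (9.52) and Rhbg (7.78) had more than Nkx2-1.

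A peak within 50 kb of a TSS was found for 5960 of 22342 protein-coding genes, 26.7%, and 3 or more for 507, 2.27%. With marked peaks alone the share was 24.6% (5485 genes). Counts of the gene lists are read against these, with no test, and neighbouring genes can share a peak. Among 34 transcription factors of the MGE and ventral telencephalon, 22 had a peak (64.7%) and 6 had 3 or more. Lhx6 had 4. The one 0.172 kb upstream of a TSS had a fold of 7.75, overlapped an LHX6 peak and lay in H3K27me3. The one 0.213 kb upstream of another TSS (fold 3.81) had H3K27ac in wild type and none in the mutant. The Dlx1 and Dlx2 pair, distal-less factors of ventral forebrain neurons, shared 4 peaks. Those 5.37 and 7.25 kb downstream of a Dlx1 TSS, between the genes, had folds of 6.38 and 5.02 and overlapped LHX6. Dlx2 had a further peak 35.7 kb upstream (fold 7.60, with an NK2 core) whose H3K27ac was absent from the mutant list. Dlx5 and Dlx6 shared 3, with folds of 2.90, 3.58 and 5.85, of which the strongest had an NK2 core. Zeb2 (fold 7.60), Sp9 (2.90) and Vax1 (5.02) each had a peak.

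**Figure D4:**
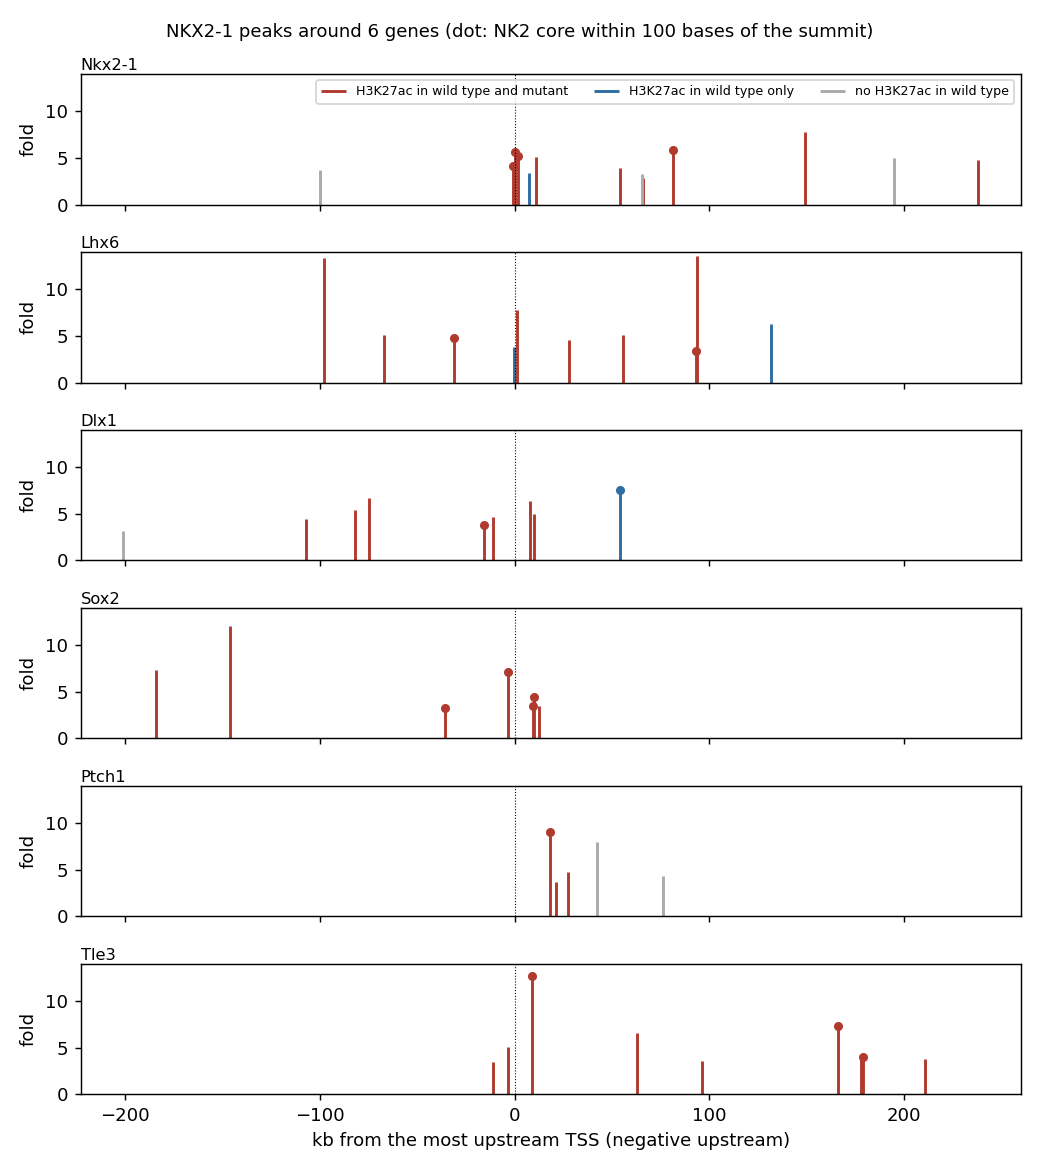
NKX2-1 peaks around Nkx2-1, Lhx6, Dlx1, Sox2, Ptch1 and Tle3; x axis, kb from the most upstream TSS of the gene, negative upstream; y axis, fold enrichment; red, H3K27ac in wild type and mutant; blue, in wild type only; grey, none in wild type; a dot marks an NK2 core in the 200-base window. The peak 54.4 kb from Dlx1 has a fold of 7.60 and is blue.

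Genes of progenitors and of morphogen signalling had peaks of several kinds. Sox2 had 5 within 50 kb, at −35.5, −3.60, 9.33, 9.80 and 12.6 kb, with folds of 3.28, 7.07, 3.51, 4.49 and 3.51. All 5 had H3K27ac in both genotypes, and the first 4 had an NK2 core. Over the SOX list, 9 of 12 genes had a peak (75%), among them Sox4 and Sox11 at their promoters (folds 3.66 and 5.10). In the sonic hedgehog pathway, which patterns the MGE, 7 of 12 genes had one (58.3%) and 2 had 3 or more. Ptch1, the receptor, had 5. The one 9.58 kb inside the gene, with an NK2 core, had a fold of 9.04. Another, 16.7 kb upstream of a TSS but 42.1 kb downstream of the most upstream Ptch1 TSS, had a fold of 7.97 and no H3K27ac. Gli2, a transcriptional effector, had a promoter peak with a fold of 10.2. The coreceptors Cdon, Boc and Gas1 had 3, 2 and 2, of which only the Cdon peak 18.3 kb upstream had wild-type H3K27ac, and all 7 had H3K4me1. Both Gas1 peaks (folds 6.84 and 7.14) lay in H3K27me3.

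Groucho corepressors, which NK2 factors can recruit, and other corepressor genes had a peak in 8 of 12 (66.7%), 3 of them with 3 or more. Tle1 had the strongest, with a fold of 15.2, 17.0 kb inside the gene, with 2 NK2 cores and an LHX6 overlap. The Tle3 peak 5.70 kb inside the gene had a fold of 12.7, with an NK2 core and no LHX6 overlap. In the Notch list 9 of 19 had a peak (47.4%), and Mfng, a Fringe glycosyltransferase, had 5 with folds of 3.13 to 6.69. By nearest TSS Mfng had 2 peaks, and a cluster of 3 with folds of 3.13 to 6.69 was nearest to Elfn2. Nuclear factor I and POU genes had one in 9 of 13 (69.2%), and Nfib had 5. The Nfib peak 43.5 kb from a TSS (fold 4.79) lost H3K27ac.

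Axon guidance genes had a peak in 16 of 39 (41.0%). Epha4 had 2, at 1.29 and 17.3 kb upstream, with folds of 11.6 and 20.5. Nrp1, a semaphorin receptor, had 2 at 30.0 and 21.7 kb upstream, both with NK2 cores (folds 5.10 and 4.57) and neither with H3K27ac or H3K4me1. Ephb3 had a promoter peak with a fold of 7.60. Cortical interneuron genes had one in 11 of 26 (42.3%), and Cxcr7, a chemokine receptor of migrating interneurons, had an intronic peak with a fold of 7.97 that overlapped LHX6. Lists of lateral and caudal eminence genes (11 of 25, 44.0%), LIM homeobox and LIM cofactor genes (7 of 18, 38.9%), WNT and BMP pathways (12 of 29, 41.4%) and progenitors (10 of 20, 50%) were also above 26.7%. The LIM homeobox genes alone had 3 of 12 (25%), and Lmo1, Lmo2, Lmo3 and Ldb1 were the cofactor genes with a peak. Above 26.7% were also pallial genes and housekeeping genes, each with 6 of 16 (37.5%). In the lateral and caudal list Foxp4 had an intronic peak with a fold of 10.3 and an LHX6 overlap.

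Known NKX2-1 targets of lung and thyroid had a peak in 4 of 15 (26.7%), equal to the share of all genes. The Pax8 peak, 33.1 kb from a TSS with a fold of 6.46, lost H3K27ac. Endothelial, mural and blood genes had 1 of 12 (8.33%), microglial genes 1 of 6, oligodendrocyte genes 2 of 8 and Hox genes 0 of 22.

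The NK2 core was found in the 200-base window at the summit of 1205 peaks (21.4%). CACTCAA was found in 710 windows (12.6%) and CACTTGA in 575 (10.2%). Over 1 kb from a TSS the share was 23.8%, against 4.84% of windows at H3K27ac summits without an NKX2-1 peak and 4.61% of windows 1 kb to the sides. Promoter peaks had one in 13.5%, against 3.24% of windows at all protein-coding promoters and 1.77% of promoters with H3K4me3 and no NKX2-1 peak. Those promoter windows are placed by the TSS and not by a summit. Marked distal peaks had it in 23.4% and unmarked ones in 25.1%. In 5 equal groups of peaks, from the weakest to the strongest, the share was 14%, 18.1%, 23.5%, 23.6% and 27.9%. Of the 2788 cores within 500 bases of a summit, 1059 (38%) lay within 50 bases.

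The marks at a peak were also counted by its number of cores. The 186 peaks with 2 or more cores (3.31%) had wild-type H3K27ac in 33.3%, H3K27ac or H3K4me1 in 53.2% and an LHX6 overlap in 5.91%. The values were 66.6%, 81.7% and 11.3% for the 1019 peaks with 1 core and 72.4%, 81.4% and 19.2% for the 4417 with none. The peaks with 2 cores include the Gas1 peak of fold 7.14 and the Nrp1 peak of fold 4.57, which had no wild-type H3K27ac, and the Tle1 peak of fold 15.2, which had it.

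**Figure D5:**
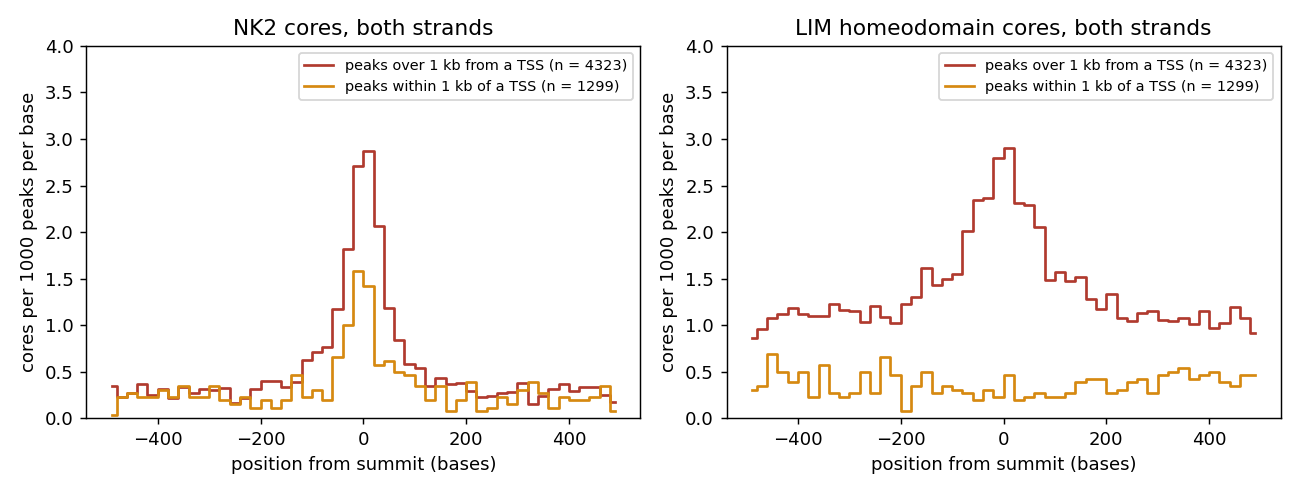
Positions of NK2 cores (left) and LIM homeodomain cores (right) on both strands around NKX2-1 summits, in 20-base bins, as cores per 1000 peaks per base, for peaks over 1 kb from a TSS (n = 4323) and within 1 kb (n = 1299). The distal NK2 curve peaks at 2.87 in the bin centred at 10 bases, and the promoter LIM curve shows no peak at the summit.

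Letters of other factor classes differed between distal and promoter peaks. The LIM homeodomain letters TAATTA or TAATGA were in 32.3% of distal windows (15.8% to the sides, 10.4% of H3K27ac summits) and in 4.54% of promoter windows. The DLX-type TAATTG was in 19.5% of distal windows (7.85% to the sides, 5.17% of H3K27ac summits). The E-box CAGCTG was in 27.3% (9.50% to the sides, 15.5% of H3K27ac summits). Marked distal peaks had the LIM letters in 36.0% and the E-box in 31.3%, and unmarked ones in 21.0% and 14.7%. The LIM and DLX letters begin alike, and 1 window may hold both. Promoter windows had the CCAAT box AGCCAAT in 13.8%, against 7.17% of H3K4me3 promoters without a peak. They had the ETS letters CCGGAAG in 14.3%, the same as those promoters, and the GC box GGGCGG in 46.6% against 62.4%. The comparison windows are placed by the most upstream TSS, and the NKX2-1 windows by summits, with a median of −72.0 bases from a TSS. What this difference in position does to the shares was not tested. A match of letters is a description and not a bound site.

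LHX6 peaks overlapped 973 NKX2-1 peaks (17.3%), and 959 of the 1589 LHX6 peaks (60.4%) overlapped an NKX2-1 peak. Large clusters enter both counts: 329 of the 973 lay in NKX2-1 clusters of 6 or more, and 418 of the 1589 in LHX6 clusters of that size. The 60.4% was not computed without them. The share of NKX2-1 peaks with an LHX6 overlap was 2.77% at promoter peaks and 20.7%, 22.5% and 20.9% in the distal classes. It was 10.1% among marked peaks and 12.3% without the clusters of 6 or more. Peaks with an LHX6 overlap had an NK2 core in 12.9% and H3K27ac in 38.7%, against 23.2% and 76.6% of the rest. Without the clusters of 6 or more, the shares were 14.1% and 55.4% of 644 peaks with an LHX6 overlap, against 23.4% and 77.5% of the rest. Over 1 kb from a TSS and without those clusters, H3K27ac was lost at 73 of 347 peaks with an LHX6 overlap (21.0%, 16.9 to 25.7) and at 333 of 2336 without (14.3%, 12.9 to 15.7). At 1 to 10 kb the shares were 18.5% (6.30 to 38.1) and 9.35% (6.82 to 12.4). At 10 to 100 kb they were 19.2% (13.7 to 25.8) and 15.3% (13.3 to 17.4). Beyond 100 kb they were 23.8% (17.1 to 31.6) and 15.7% (13.0 to 18.7). The intervals overlap in each of these classes. By strength of the distal H3K27ac region they were 54.5% (40.6 to 68.0) and 37.6% (33.2 to 42.2) at a −log10 p of 10 to 20, again with overlap, and 26.6% (18.6 to 35.9) and 11.6% (9.15 to 14.5) at 20 to 40.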

How the data were processed

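The NKX2-1 peak list was compared with 9 other lists, 10 of the 20 samples having one. Per the file headers, the authors called peaks with MACS 2.1.0.20140616 on merged alignment files of ChIP and input, with a p cutoff of 1.0e-05, tags extended to 250 bases and no local background. BWA 0.6.2, CASAVA 1.8.2, bcl2fastq 1.8.4 and genome build mm9 are named in the submitters' processing notes. The deposited pileup is a coverage signal at the summit, scaled by the authors' caller. The deposited −log10 p-value and the deposited fold are the authors' values for each summit against 1 genome-wide background. How many libraries were merged is not given in the sources used here.

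Summits of 1 peak were joined and the strongest kept. Peaks on chromosomes 1 to 19 and X entered, and those overlapping all 9 other lists were left out. Coordinates are those of NCBIM37. Distances run to 45993 TSSs of 22342 protein-coding genes of GENCODE vM1. Overlap means at least 1 shared base. Motifs were searched on both strands in 200-base windows. Tables were made in Python 3.11.15 (pandas 2.3.3, numpy 2.4.6), intervals with scipy 1.17.1 and plots with matplotlib 3.10.9. The functions for overlap, distance, clusters and copies of summit words were tested on simulated data. The motif search was not.

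The peaks, the gene lists (332 of 333 genes matched) and the rules were chosen with earlier results of these data known. Genes named are the 25 with the most peaks and up to 5 of each list by peaks within 50 kb. Peaks named are the 15 strongest, the 5 strongest of each distance class and the 10 largest clusters. The ranking by marked peaks, and other genes named from it or from the lists, were chosen after the values were seen. With 1 sample per group no test over samples was possible. Other TSS sets, thresholds, linking distances, overlaps and motif windows were tried.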

Additional observations from a re-analysis of the deposited data

Results flagged for a closer look

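NKX2-1 signal lay outside the peaks described in 2 places. On contigs other than chromosomes 1 to 19 and X, the list held 257 summits, 204 of them on unplaced sequence, 21 on the mitochondrial genome and 16 on unplaced Y sequence. The 61 NKX2-1 peaks found in all 10 lists had a median fold of 10.7, a highest fold of 37.1 and a median length of 914 bases, against 4.34, 21.5 and 340.0 bases for the peaks kept. The 32-base summit word of 20 of the 61 had more than 1 copy in the reference, and that of 41 had 1.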

How the results depend on the processing

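Every value rests on 1 sample, and the depth of the NKX2-1 sample bounds which weak sites passed the threshold. Shares that stayed within their counting interval, and counts within 1.5 times, numbered 20 of 41 under the processing choices listed at the start and 15 of 29 under those added after seeing the data. The added ones left out clusters of 6 or more peaks, kept peaks whose summit word occurs once, or kept marked peaks. The share within 1 kb of a TSS (23.1%) was 26% with TSSs of all gene types, 20.9% with the most upstream TSS alone, 24.3% without the clusters and 27.7% among marked peaks. The median distance (25.1 kb) became 12, 34.5 and 23.0 kb with all gene types, the most upstream TSS and marked peaks. The share with a neighbour (24.1%) was 17.4% at 5 kb, 32.3% at 25 kb, 21.1% at a −log10 p of 10 or more, 18.4% without the clusters, 21.8% with single-copy words and 17.2% among marked peaks. The 110 clusters of 3 or more fell to 56 and the 99 genes with 5 or more peaks to 57 among marked peaks. Without the clusters of 6 or more these counts were 84 and 74. Genes with a peak nearby (26.7%) were 40.3% at 100 kb, 15.5% at 20 kb, 23.8% at the stricter threshold and 24.6% with marked peaks. Wild-type H3K27ac (70.0%) was 59.0% when at least 50% of the peak had to be covered, 74.0% within 1 kb, 68.1% with all lists stricter, 74.8% without the clusters and 72.4% with single-copy words. Its loss (10.7%) was 9.67% at the larger overlap and 12% with stricter lists. LHX6 overlap (17.3%) was 15.6%, 18.7% and 15.3% under the same 3 settings, 12.3% without the clusters, 15.5% with single-copy words and 10.1% among marked peaks. The NK2 core share (21.4%) was 16% in 100-base windows, 35.7% with 6-base cores and 22.9% at the stricter threshold. The 6-base letters, CACTTG or CTCAAG, were in 20.8% of windows 1 kb to the sides, where the 7-base cores were in 4.72%. CTCAAG is not part of either 7-base core. The cause of these shifts was not tested. No paired analysis was possible because only input samples share replicate numbers and no peak list of theirs was analysed here.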

Other observations

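Gene families differed in how many members had an NKX2-1 peak within 50 kb of a TSS, against 26.7% of all protein-coding genes. All 4 DLX genes with a peak (of 6) had 3 or more. Ephrins and Eph receptors had one in 12 of 22 (54.5%), semaphorins and plexins in 15 of 29, basic helix-loop-helix factors in 14 of 29 and numbered Zfp genes in 129 of 361 (35.7%). Solute carriers (88 of 327, 26.9%) and potassium channels (24 of 94) were near the share of all genes. Glutamate receptors had 6 of 26 and GABA-A receptors 1 of 19. HOX genes (0 of 39), ZIC genes (0 of 5) and clustered protocadherins (0 of 24) had none. Olfactory receptors had 13 of 1087 (1.20%), and Olfr161, the nearest gene to a cluster of 19 peaks, lay at least 241 kb from the peaks given to it. Members of a family that are neighbours share peaks, so these counts are not independent.

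Chromosome X had 0.390 NKX2-1 peaks per megabase (65 peaks), and the autosomes had 1.55 to 2.91. Wild-type H3K27ac regions were also sparser there, 6.68 per megabase against 19.3 to 35.7. The labels used here do not give the sex of the embryos, and its part in the density was not tested.

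The octamer ATGCAAAT, the site of POU factors, was in 5.27% of distal NKX2-1 windows, while flanking windows at 1 kb held it in 1.35% and distal H3K27ac summits without an NKX2-1 peak in 0.993%. It was in 6.35% of marked distal peaks and in 1.91% of unmarked ones. Among POU genes, Pou3f2 had a peak 4.64 kb upstream with a fold of 6.91, and Pou3f3 one 1.41 kb upstream with a fold of 3.66. Both had H3K27ac in wild type and mutant.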
